A study of Homo sapiens with 6 samples.

Results

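Genes that build, cross-link or connect the extracellular matrix were followed in HCCLM3, an established human liver cancer line with high metastatic capacity. They are the 5 lysyl oxidases LOX, LOXL1, LOXL2, LOXL3 and LOXL4, the fibronectin gene FN1, and the lysyl hydroxylases PLOD1 and PLOD2. SPARC and FSTL1, which encode related secreted glycoproteins, complete the set. All 10 were found among the 58302 listed genes. They were chosen by name as a family, with the increase of LOX and FN1 in this same comparison already known, so the differences between groups are given as a description and support nothing by themselves. The cells had been transfected with Control ASO (3 libraries) or with SCARNA13 ASO (3 libraries) (ASO, antisense oligonucleotide, a synthetic strand complementary to the RNA it is meant to deplete). SCARNA13 is a small Cajal body-specific RNA, and the comparison asks which transcripts change when it is targeted. All groups come from 1 cell line and all received an oligonucleotide. No label states the oligonucleotide's sequence or dose, or the time after transfection.

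Lysyl oxidases are secreted, copper-dependent enzymes that oxidise lysine side chains of collagen and elastin, and the aldehydes formed condense into the cross-links that stiffen a matrix. Lysyl hydroxylases act earlier, in the endoplasmic reticulum, where they hydroxylate procollagen lysines and so set which cross-links can form. Fibronectin is laid down as fibrils on integrin receptors and serves as a scaffold for collagen deposition, and high LOX, LOXL2 and PLOD2 are known in hypoxic and invasive tumours.

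Levels are in FPKM (fragments per kilobase of gene length, scaled so that the median gene is level across libraries). After SCARNA13 ASO, LOX and FN1 both stood at 1.82 times their control mean. Their groups did not overlap, as for 4% of 10120 genes in this direction. SPARC, the most abundant of the 10, was nearly level. LOXL1, LOXL2, FSTL1, PLOD1 and PLOD2 were also higher in each replicate number, as were 23.9% of 10120 genes, with smaller ratios of group means. LOXL3 was the member that was lower after SCARNA13 ASO. In a fit of log2(FPKM + 0.5) with groups as the only term (limma-trend), 0 of 9 tested members and 0 of 10120 genes (0%) passed a Benjamini-Hochberg adjusted p of 0.05. Of the members, LOX and FN1 had an unadjusted p under 0.05 there, among 173 genes in all. With each library corrected for the GC content of the genes and with the replicate number as a block, 5 of 9 tested members passed as higher (LOX, LOXL1, LOXL2, FN1 and PLOD2), against 3.06% of 10104 genes, and 0 passed as lower, against 2.15%. "Rose" and "fell" are used below for genes that passed in that second fit only. None of the 5 calls held with the block alone (0 of 10120 genes; LOX and FN1 at a limma adjusted p of 0.0506), or in the blocked, GC-corrected fit with genes kept down to a mean of 0.1 FPKM (0 of 17740; LOX and FN1 at 0.0942). They also rest on 3 replicate numbers: 0 members passed when replicate 1 or replicate 2 was left out of both groups, and 5 when replicate 3 was (LOX, LOXL2, FN1, FSTL1 and PLOD2). The members' share is not read as a result, since the choice of members used this contrast.

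The libraries held 20457474 to 25173559 reads assigned to genes. The replicate 3 libraries of both groups departed from the others along GC content: the 1063 most GC-poor genes had a median log2 deviation of -0.65 in Control ASO 3 and -0.52 in SCARNA13 ASO 3, against 0.28 to 0.31 in the other 4 libraries, relative to each gene's mean. SCARNA13 itself measured 0.556 to 0.717 FPKM in controls and 0.268 to 0.468 FPKM after SCARNA13 ASO, on only 13 and 7 reads, too few to size its depletion. Whether the replicates are separate cultures is not labelled; the p-values therefore reflect the spread among these libraries, which may be technical. Markers of hepatocytes were mostly absent: ALB, APOA2 and FGB were at 0 in all libraries, and 1 of 8 hepatocyte markers (SERPINA1) reached a mean of 1 FPKM. The keratins KRT8, KRT18 and KRT19 were abundant, with CDH1 at 0.

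**Figure D1:**
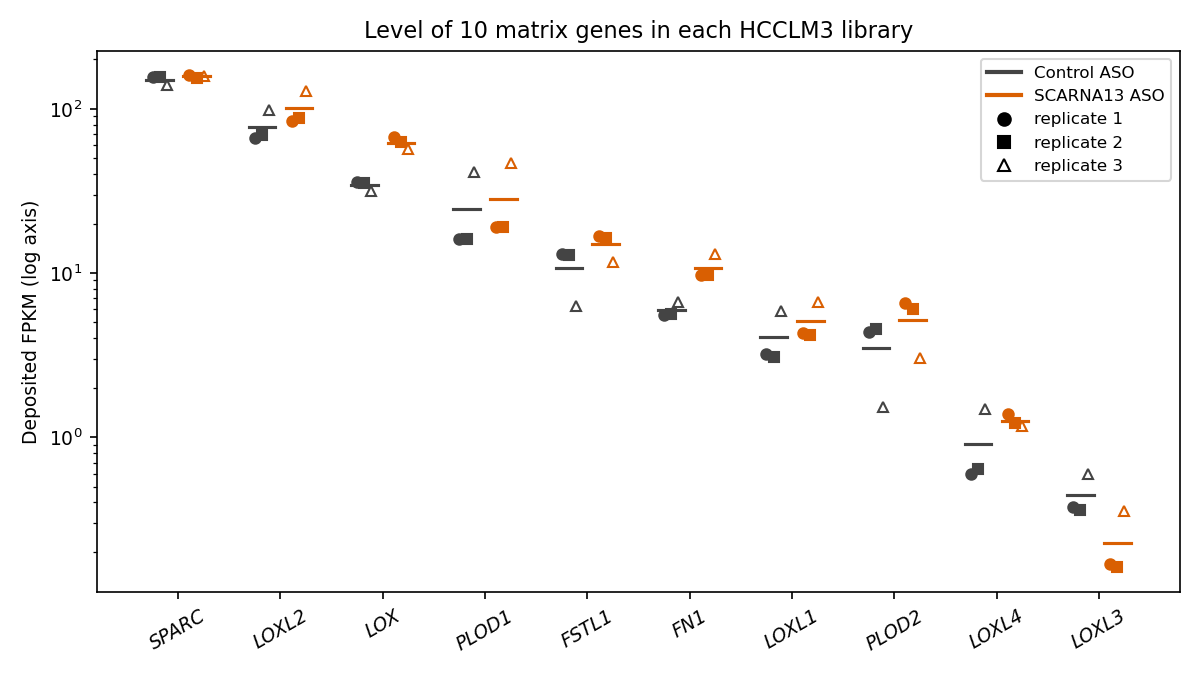
Deposited FPKM (log axis) of the 10 genes in each library, with Control ASO in grey and SCARNA13 ASO in orange; symbols mark replicate numbers and bars are group means. LOX and FN1 separate by group in all libraries, as did 4% of 10120 genes in this direction. PLOD1, PLOD2 and FSTL1 are spread by their replicate 3 libraries (triangles).

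The control levels spanned from SPARC at 150.5 FPKM ± 9.44 to LOXL3 at 0.445 FPKM ± 0.131 (SD, n = 3). Between them stood LOXL2 at 77.7 ± 17.3, LOX at 34.2 ± 2.19, PLOD1 at 24.5 ± 14.5, FSTL1 at 10.7 ± 3.86, FN1 at 5.93 ± 0.611, LOXL1 at 4.06 ± 1.56, PLOD2 at 3.49 ± 1.71 and LOXL4 at 0.905 ± 0.502 FPKM. In this order the control values of neighbours overlapped for LOX and PLOD1, FSTL1 and FN1, FN1 and LOXL1, LOXL1 and PLOD2, and LOXL4 and LOXL3. The 2 lysyl oxidases LOXL2 and LOX therefore made up most of the family's transcripts in these cells. The deposited length of each of the 10 genes equals the union of its GENCODE 29 exons, which for FN1 is 17315 bases against 9171 in its longest transcript. Per length of the longest transcript, FN1 would stand at 11.2 FPKM and PLOD1, at 44.3, would stand above LOX, at 37.2.

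LOX (ENSG00000113083), the founding lysyl oxidase, occupies chromosome 5, 122063195 to 122078360, minus strand (GRCh38, as for all positions here). Its level was 35.6, 35.3 and 31.7 FPKM in Control ASO 1, 2 and 3 and 66.9, 63.2 and 56.7 FPKM in SCARNA13 ASO 1, 2 and 3. The groups did not overlap, as for 4% of 10120 genes in this direction, and replicate 3 was the lowest of each group. These values rest on 13532 reads in controls and 24961 after SCARNA13 ASO. The ratio within a replicate number was 1.88, 1.79 and 1.79. LOX rose by 0.83 ± 0.054 on the log2(FPKM + 0.5) scale (SE, n = 3; limma adjusted p = 0.0241 in the blocked, GC-corrected fit); with neither step the change was 0.85 ± 0.21 (adjusted p = 0.9997). Exons of SRFBP1 on the opposite strand cover 2.49% of its exons, at a mean of 1.52 FPKM, so reads shared with that gene are few.

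FN1 (ENSG00000115414), which encodes fibronectin, occupies chromosome 2, 215360440 to 215436172, minus strand. Control ASO libraries gave 5.53, 5.62 and 6.63 FPKM and SCARNA13 ASO libraries 9.68, 9.71 and 12.98 FPKM. The lowest treated value lay above the highest control value, as for 4% of 10120 genes, and here replicate 3 was the highest of each group. The ratio within a replicate number was 1.75, 1.73 and 1.96. FN1 rose by 0.79 ± 0.058 (log2; SE, n = 3; limma adjusted p = 0.0276 in that fit), against 0.80 ± 0.20 without them (adjusted p = 0.9997). No exon of another annotated gene overlaps those of FN1. Gene-level values do not tell its splice forms apart.

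The sequences before the start sites of LOX, FN1 and PLOD2 are shown because these genes rose and because their windows held the hypoxia and cyclic AMP motifs searched for. Each line gives the 250 bases upstream of the RefSeq start site (GRCh38.p14), 5′ to 3′ on the minus strand, at chr5:122078260-122078509, chr2:215436069-215436318 and chr3:146161185-146161434. Capitals mark the hypoxia response core ACGTG, on either strand, in LOX and PLOD2, and the cyclic AMP response element TGACGTCA in FN1.
LOX: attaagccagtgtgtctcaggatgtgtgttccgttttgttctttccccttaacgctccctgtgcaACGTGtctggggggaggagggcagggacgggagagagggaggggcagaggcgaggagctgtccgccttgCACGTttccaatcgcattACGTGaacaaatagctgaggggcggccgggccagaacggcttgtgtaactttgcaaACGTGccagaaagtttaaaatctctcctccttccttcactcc
FN1: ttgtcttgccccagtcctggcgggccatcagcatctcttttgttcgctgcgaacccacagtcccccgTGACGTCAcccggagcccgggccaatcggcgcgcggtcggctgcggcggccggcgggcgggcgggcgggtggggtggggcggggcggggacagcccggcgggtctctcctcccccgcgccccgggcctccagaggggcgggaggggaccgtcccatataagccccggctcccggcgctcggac
PLOD2: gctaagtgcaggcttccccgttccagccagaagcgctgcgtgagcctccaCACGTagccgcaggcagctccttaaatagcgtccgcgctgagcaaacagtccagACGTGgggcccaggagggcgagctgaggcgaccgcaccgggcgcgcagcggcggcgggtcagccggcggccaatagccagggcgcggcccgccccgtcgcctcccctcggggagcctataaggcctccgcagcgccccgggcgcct

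RefSeq lists 3 windows for LOX and 2 for LOXL3, of which only the one nearest the deposited 5′ end is described. The PLOD2 start site used lies 2469 bases from the deposited 5′ end of the gene and that of LOXL3 1748 bases, against 56 to 512 bases in the other 7. The nearest LOX window held 4 matches to ACGTG, at -185, -116, -98 and -42 from the start site, and PLOD2 held 2, at -200 and -146. FSTL1 held 1, at -224. Among all 35116 RefSeq windows of 300 bases, 21.4% held at least 1 match and 0.843% held 4 or more. FN1 held 1 match to TGACGTCA, at -183, which 1.85% of windows hold. Searches on both strands for the AP-1 motif TGANTCA (7.71% of windows) and the C/EBP-ATF composite TGATGNAA (3.62%) found no match in any of the 9 windows. The TEAD motif GGAATG (14.0% of windows) was found in LOXL3 and SPARC. None of these matches overlapped another motif. LOXL1, LOXL4 and PLOD1 held none of the 5 motifs. These are matches of letters in a short window and not sites of binding.

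**Figure D2:**
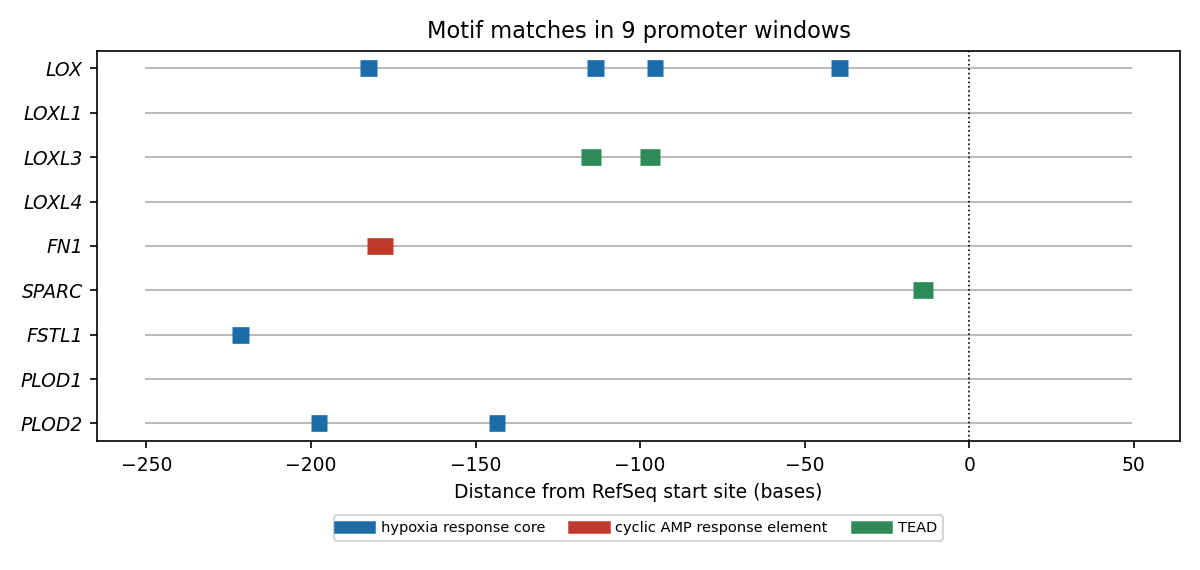
Motif matches along 9 RefSeq promoter windows, from 250 bases before to 50 after the start site (dotted line), with colour giving the motif. LOX carries 4 matches to the hypoxia response core, PLOD2 carries 2 and FSTL1 carries 1.

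LOXL2 (ENSG00000134013), a lysyl oxidase with scavenger receptor domains that acts on type IV collagen, was the most abundant of the family. Its control values were 66.3, 69.2 and 97.6 FPKM and its SCARNA13 ASO values 84.6, 88.4 and 128.2 FPKM. The groups overlapped because Control ASO 3 lay above SCARNA13 ASO 1 and 2, but the ratio within a replicate number was 1.28, 1.28 and 1.31. LOXL2 rose 1.35-fold (0.43 ± 0.068 on the log2 scale, SE, n = 3; limma adjusted p = 0.0429). Its 68186 reads over the 6 libraries leave counting error small beside that spread. It lies on chromosome 8 at 23297189 to 23425328, minus strand, and its exons share 178 bases with the antisense gene AC090197.1 and 120 with ENTPD4.

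LOXL1 (ENSG00000129038), the member linked to elastin, occupies chromosome 15, 73925989 to 73952137, plus strand. It measured 3.22, 3.098 and 5.86 FPKM in controls and 4.32, 4.19 and 6.67 FPKM after SCARNA13 ASO. Control ASO 3 again lay above the first 2 treated libraries, and the ratios were 1.34, 1.35 and 1.14. LOXL1 rose 1.32-fold (0.40 ± 0.069, SE, n = 3; limma adjusted p = 0.0466). The antisense transcript LOXL1-AS1 shares 335 bases, or 9.21% of the exons, and measured 2.17 FPKM ± 0.396 in controls and 2.32 ± 0.30 after SCARNA13 ASO. The kit named in the labels does not mark strand, so reads in that stretch cannot be assigned to either gene.

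LOXL4 (ENSG00000138131, chromosome 10, 98247690 to 98268250, minus strand) gave different answers in different replicate numbers. It measured 0.594, 0.637 and 1.48 FPKM in controls and 1.38, 1.22 and 1.16 FPKM after SCARNA13 ASO. The treated level was 2.33 and 1.91 times the control level in replicates 1 and 2, and 0.782 times in replicate 3. Only 529 reads in all cover it. Its fitted change was 0.44 ± 0.19 (SE, n = 3; limma adjusted p = 0.19), and within replicates 1 and 2 alone it was 0.69 ± 0.13 (adjusted p = 0.0588), so it passed in neither. Its control mean was below 1 FPKM, and it passed the filter of a mean of 1 FPKM only through the treated libraries.

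LOXL3 (ENSG00000115318, chromosome 2, 74532414 to 74555690, minus strand) was the lowest of the family and failed that filter. It measured 0.377, 0.362 and 0.595 FPKM in controls and 0.169, 0.161 and 0.354 FPKM after SCARNA13 ASO. Each treated value lay below each control value, as for 3.54% of 28762 genes with any reads. It had 126 reads in controls and 64 after SCARNA13 ASO. The ratio was 0.50 once scaled to the library sizes that the FPKM imply (exact 95% interval 0.364 to 0.681, covering counting error alone). In a fit that kept genes down to a mean of 0.1 FPKM, an alternative chosen after seeing the data, its change was -0.33 ± 0.11 (SE, n = 3; limma adjusted p = 0.212), on a scale that understates changes at this level. Exons of HTRA2 on the opposite strand cover 14.3% of its exons. HTRA2 measured 31.7 FPKM ± 18.7 in controls and 30.3 ± 12.3 after SCARNA13 ASO, and its part in the LOXL3 reads was not tested.

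**Figure D3:**
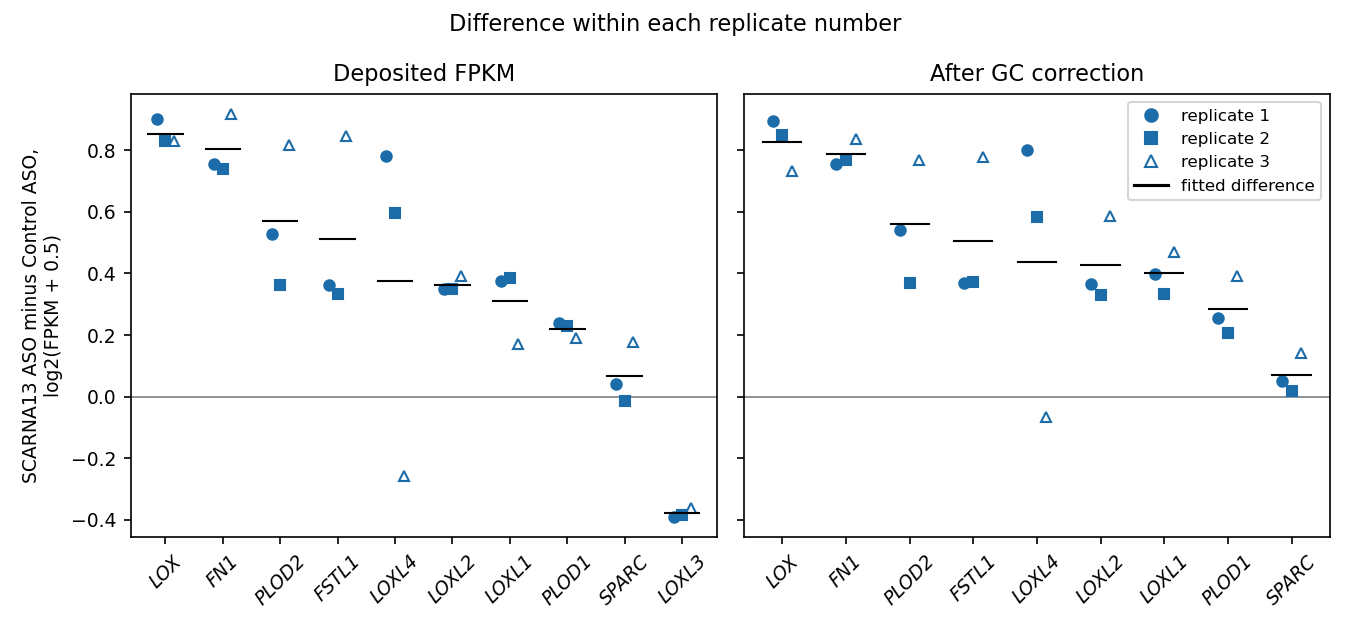
Difference between SCARNA13 ASO and Control ASO within each replicate number, on the log2(FPKM + 0.5) scale, for deposited values (left) and after GC correction (right); lines are the fitted differences over the 3 numbers. LOX, FN1, LOXL1, LOXL2, FSTL1, PLOD1 and PLOD2 lie above 0 in each number in both panels, and LOXL4 lies below 0 in replicate 3. LOXL3 was too low for the GC-corrected fit.

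The lysyl hydroxylases were both higher in each replicate number, and their replicate 3 libraries moved in opposite directions. PLOD2 (ENSG00000152952), which hydroxylates lysines of collagen telopeptides, occupies chromosome 3, 146069440 to 146163653, minus strand. It measured 4.37, 4.57 and 1.52 FPKM in controls and 6.52, 6.01 and 3.05 FPKM after SCARNA13 ASO, with ratios of 1.49, 1.32 and 2.01. SCARNA13 ASO 3 lay below Control ASO 1 and 2, so the groups overlapped. PLOD2 rose 1.47-fold (0.56 ± 0.098, SE, n = 3; limma adjusted p = 0.0477).

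PLOD1 (ENSG00000083444), which acts on the helical part of collagen, occupies chromosome 1, 11934205 to 11975538, plus strand. Controls gave 16.1, 16.2 and 41.2 FPKM and SCARNA13 ASO libraries 19.1, 19.0 and 47.0 FPKM. The ratios of 1.19, 1.18 and 1.14 were close to each other, while the spread between replicate numbers was far wider than the difference. Its change of 0.28 ± 0.059 did not pass (limma adjusted p = 0.058).

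SPARC and FSTL1 encode related secreted glycoproteins, SPARC being a collagen-binding counter-adhesive protein. SPARC (ENSG00000113140, chromosome 5, 151661096 to 151687165, minus strand) measured 155.4, 156.5 and 139.6 FPKM in controls and 159.8, 154.8 and 158.1 FPKM after SCARNA13 ASO. The groups overlapped, and the treated value was higher in 2 of 3 replicate numbers. Its change was 0.071 ± 0.053 (SE, n = 3; limma adjusted p = 0.40).

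FSTL1 (ENSG00000163430, chromosome 3, 120392293 to 120451253, minus strand) measured 13.02, 12.9 and 6.26 FPKM in controls and 16.9, 16.3 and 11.6 FPKM after SCARNA13 ASO. The ratios were 1.30 and 1.27 in replicates 1 and 2 and 1.86 in replicate 3. The change of FSTL1 was 0.51 ± 0.099 with all libraries (limma adjusted p = 0.0542) and 0.37 ± 0.043 in the same fit without replicate 3 (adjusted p = 0.0328), so its call depends on replicate 3. MIR198, which lies in its exons, was listed at 0 in all libraries.

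Of the 9 tested members, 7 (LOX, LOXL1, LOXL2, FN1, FSTL1, PLOD1 and PLOD2) were higher in 3 of 3 replicate numbers, as were 23.9% of 10120 genes. Within replicates 1 and 2 alone, on deposited values with the block, 6 of 9 passed as higher (those that rose, plus FSTL1), against 3.32% of 10120 genes. The spread in that fit is small and may be technical. Chi-square on reads, per gene, was 3.16 between Control ASO 1 and 2, against 282 and 265.5 from them to Control ASO 3. It was 5.90 between SCARNA13 ASO 1 and 2, against 195.4 and 181.9 to SCARNA13 ASO 3.

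How far replicate 3 departed differed among the members and followed their GC content only in part. PLOD2, with 34.4% GC in its longest transcript, stood at 0.34 and 0.487 times the mean of replicates 1 and 2 in controls and after SCARNA13 ASO. PLOD1, with 58.6% GC, stood at 2.55 and 2.47 times that mean. The order by GC was not strict. FSTL1 (44.1% GC) stood at 0.483 and 0.701 times and LOXL1 (67.55% GC) at 1.86 and 1.56 times. LOX (39.6% GC) stood at 0.893 and 0.871 times and FN1 (42.2% GC) at 1.19 and 1.34 times. On the deposited scale both were thus among those least shifted. After GC correction, LOX stood at 5.56 (log2) in Control ASO 3, against 4.92 and 4.91 in Control ASO 1 and 2. FN1 stood there at 3.26, against 2.39 and 2.41. For both genes SCARNA13 ASO 3 also lay above SCARNA13 ASO 1 and 2. LOXL1 and LOXL2, above replicates 1 and 2 in replicate 3 as deposited, lay below them after that correction. In deposited FPKM, LOXL4 (57.7% GC) was shifted in controls alone, to 2.41 times against 0.893 times after SCARNA13 ASO. The part of replicate 3 in the differing ratios of LOXL4, FSTL1 and PLOD2 was not tested.

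**Figure D4:**
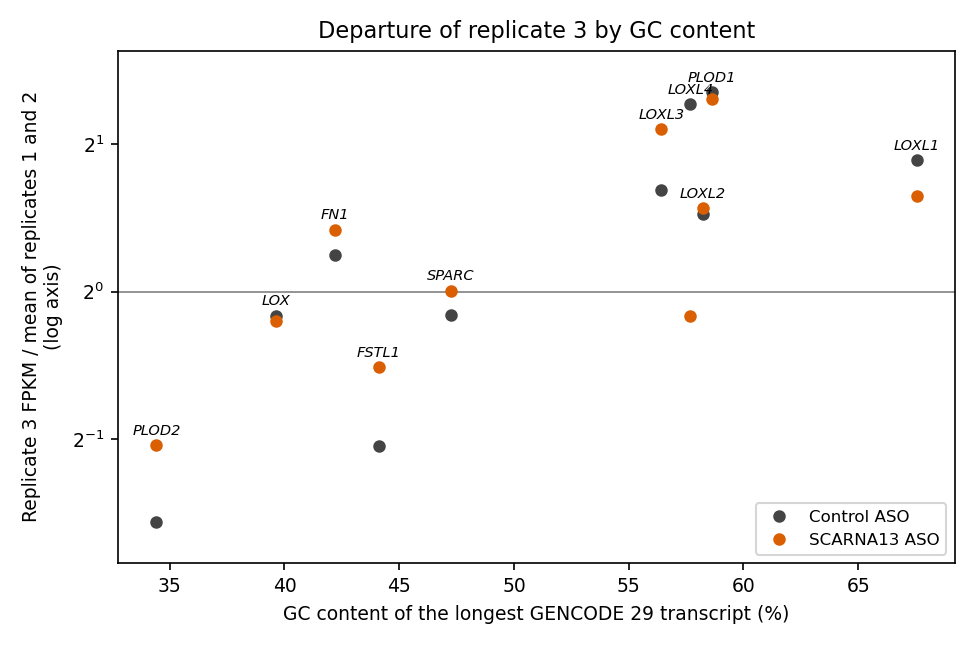
Replicate 3 FPKM over the mean of replicates 1 and 2 (log axis) against the GC content of the longest transcript, for the 10 genes in Control ASO (grey) and SCARNA13 ASO (orange). GC-poor PLOD2 and FSTL1 lie below 1 and GC-rich PLOD1, LOXL1, LOXL2 and LOXL3 above it. LOX, with less GC than FSTL1, lies nearer to 1, and the 2 points of LOXL4 lie on either side of 1.

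The other lists were also chosen with earlier results of these data known, so their counts are a description and support nothing by themselves. In the same fit 3.06% of 10104 genes rose and 2.15% fell, with a median log2 change of 0.00023. In lists of 3 to 18 tested genes, counts of 0 or 1 lie near those shares, and the larger ones are likewise given as counts only. Of 18 tested genes of collagen hydroxylation and folding, 1 rose and 0 fell, with a list median of 0.059 (log2). The gene that rose was P4HB, the disulfide isomerase subunit of prolyl 4-hydroxylase, at 141.9 FPKM ± 48.6 in controls and 162.8 ± 45.8 after SCARNA13 ASO (SD, n = 3), a change of 0.28 ± 0.050 (limma adjusted p = 0.0487). The third lysyl hydroxylase gene, PLOD3, stood at 0.12 ± 0.053, the collagen chaperone SERPINH1 at 0.14 ± 0.049 and PCOLCE, which enhances procollagen processing, at -0.32 ± 0.098, none of them passing. Of the LOX maturation list, 3 of 6 genes were tested and 0 passed. BMP1, the protease that releases active LOX, stood at 0.23 ± 0.092, and ATP7A, which loads copper, was too low to test at 0.171 FPKM in controls.

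Elastin itself was nearly absent (ELN, 0.0169 FPKM in controls). Of the 7 tested genes of elastic fibres and microfibrils, FBN2 rose and 0 fell, with a median of 0.11. FBN2, which encodes the microfibril protein fibrillin 2, measured 3.87, 3.93 and 3.82 FPKM in controls and 5.85, 5.74 and 6.43 FPKM after SCARNA13 ASO. The groups did not overlap, as for 4% of 10120 genes in this direction. Its change was 0.58 ± 0.067 (SE, n = 3; limma adjusted p = 0.0365).

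Among 15 tested matricellular and linker genes, 3 rose and 1 fell, with a median of 0.20. HSPG2, which encodes the basement membrane proteoglycan perlecan, measured 11.1, 12.4 and 21.95 FPKM in controls and 18.4, 20.4 and 38.1 FPKM after SCARNA13 ASO. It rose by 0.81 ± 0.095 (limma adjusted p = 0.0365), a size close to that of LOX and FN1. AGRN, encoding the proteoglycan agrin, rose by 0.36 ± 0.046 (limma adjusted p = 0.0365) and SPOCK1, a proteoglycan of the SPARC family, by 0.55 ± 0.092 (adjusted p = 0.0457). CTGF, a matricellular target of TGF-beta and YAP, fell from 38.6, 38.9 and 52.4 FPKM to 26.9, 25.6 and 32.4 FPKM (-0.57 ± 0.053; limma adjusted p = 0.036). Next by p in that fit were SPP1 (0.26 ± 0.053), VTN (-0.725 ± 0.16), CYR61 (0.27 ± 0.059) and THBS3 (0.33 ± 0.078), none of them passing. TNC, POSTN and DCN were each below 0.2 FPKM in both groups.

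None of 6 tested fibronectin receptor genes passed, and their median was 0.043. ITGB1, the beta chain of the main fibronectin receptor, stood at 0.38 ± 0.098 (limma adjusted p = 0.079), its partner ITGA5 at 0.032 ± 0.047 and the co-receptor SDC4 at 0.054 ± 0.047. Of 15 tested hypoxia-driven genes, 0 rose and 1 fell, a count near the background shares, with a median of -0.15. The gene that fell was LDHA, lactate dehydrogenase A, at -0.33 ± 0.049 (limma adjusted p = 0.0395). VEGFA stood at 0.12 ± 0.10 and CA9 was too low to test, at 0.0607 FPKM in controls. Of the genes encoding the hypoxia-inducible alpha subunits, named after their values were seen, HIF1A stood at 0.11 ± 0.082 (limma adjusted p = 0.408) and EPAS1 rose by 1.11 ± 0.067 (adjusted p = 0.0241).

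**Figure D5:**
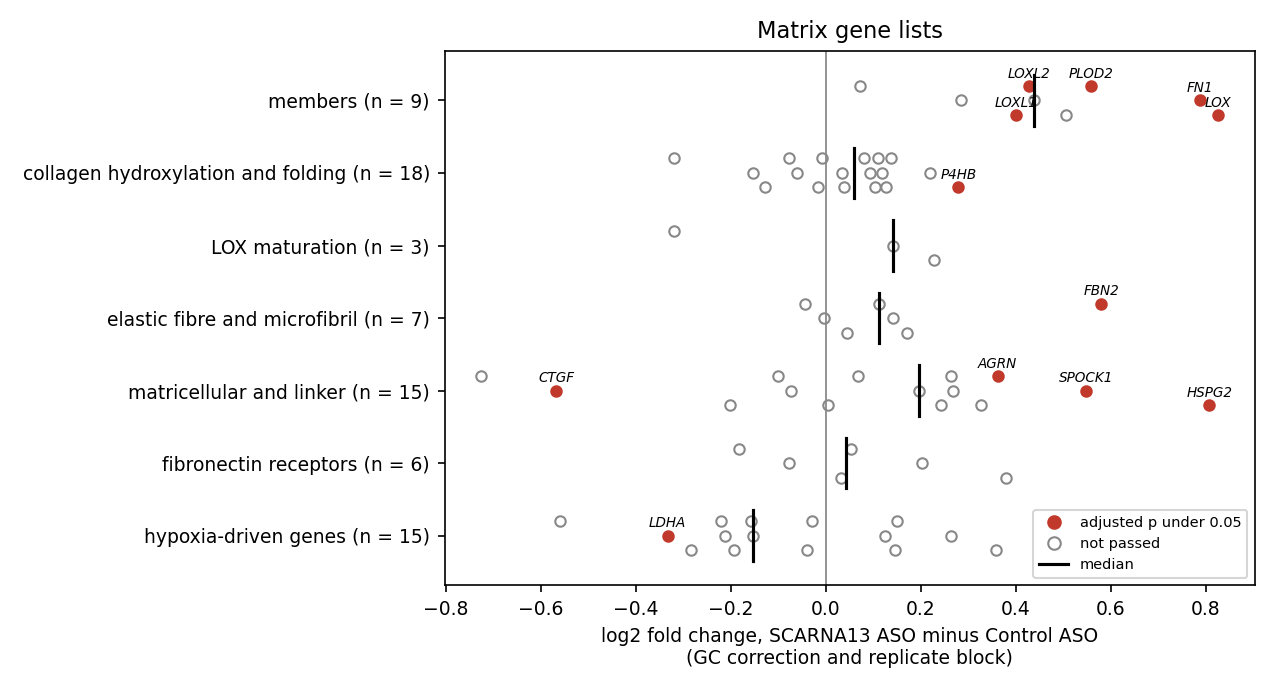
Log2 fold change of each tested gene by list, from the fit with GC correction and replicate block; filled red points passed an adjusted p of 0.05 and black lines are list medians. Members and lists were both chosen with earlier results of these data known. Outside the members, P4HB, FBN2, HSPG2, AGRN and SPOCK1 rose, and CTGF and LDHA fell.

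The genes whose log2 values ran most like those of LOX over the 6 libraries included PLAT, encoding tissue plasminogen activator (Pearson r = 0.99), SERPINE2, a protease inhibitor (0.98), the histone variant gene H2AFY2 (0.98) and the orphan receptor gene GPR176 (0.96), among 3390 protein-coding genes whose mean reached 10 FPKM. For FN1 they were NNMT, which methylates nicotinamide (0.99), the chaperone gene HSPA5 (0.99), SERPINB6 (0.98), XBP1 (0.98) and HEBP1 (0.98). LOX and FN1 correlated with each other at 0.84. The libraries share treatment group, replicate number and depth, so these values describe likeness only.

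Markers of fibroblasts, which also make these proteins, moved in both directions. COL3A1 measured 5.58, 5.81 and 4.26 FPKM in controls and 7.13, 6.88 and 4.61 FPKM after SCARNA13 ASO, and PDGFRB 0.419, 0.60 and 1.04 FPKM against 0.914, 0.904 and 1.31 FPKM, so both were higher in each replicate number, as 7 of the members were. THY1 (20.8, 20.2 and 61.8 FPKM against 17.6, 17.2 and 34.9 FPKM) and ACTA2 (4.78, 4.72 and 8.19 FPKM against 4.26, 4.07 and 6.09 FPKM) were lower in each. The part of such cells in the members' values was not tested. The summed level over the 10 genes was 31.9 to 75.8 FPKM in controls and 29.5 to 47.2 FPKM after SCARNA13 ASO, most of it from THY1, and 3 of 10 reached a mean of 1 FPKM. DCN was at most 0.0109 FPKM and COL1A2 at most 0.0066 FPKM in any library. Endothelial markers summed to at most 0.106 FPKM, with KDR, TEK and ERG at 0, and immune markers to at most 6.85 FPKM, most of it CD14, with CD3E and LYZ at 0. In bulk RNA, a change in the number of cells of a kind and a change in RNA per cell cannot be told apart.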

How the data were processed

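Per the labels' protocols, RNA came from Trizol extraction of frozen HCCLM3 cells and libraries from a TruSeq RNA kit. The authors deposited 1 FPKM value per gene and library with the gene's length and position. The submitters' processing notes list TopHat2 2.0.9, Bowtie2 2.0.6 and hg19 without roles; a counting tool is not given in the sources used here. Positions in the files are GRCh38, since they equal those of GENCODE 29 for 97.6% of 58039 shared identifiers. FPKM times length was a whole multiple of 1 step in each library (100% of values, within 0.01 reads), which gave the reads. The step implies library sizes of 13089653 to 30416028, equal to median-of-ratios size factors times the geometric mean total, so the deposited FPKM scale fixes the median gene. These sizes were 0.633 times the reads in Control ASO 3 and 0.760 times in SCARNA13 ASO 3, against 1.21 to 1.24 times in the others.

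Groups and replicate numbers came from the titles. The first test was limma-trend (limma 3.58.1, R 4.3.3) on log2(FPKM + 0.5) of genes whose mean reached 1 FPKM, two-sided, Benjamini-Hochberg adjusted over all genes. The second subtracted a loess trend (span 0.5) on GC content from each library and used the replicate number as a block. Deviations from group means correlated between same-numbered libraries (r = 0.84, 0.78 and 0.91 over genes), each above the 0.1 required for treating the title numbers as pairs. Replicate 1 of either group against replicate 2 of the other also gave 0.81, so these correlations set only replicate 3 apart and do not show which of replicates 1 and 2 belong together. Members and lists were chosen with earlier results of these data known. All 10 members were named, with list genes that passed or had the smallest p, and for LOX and FN1 the 5 genes most correlated, of which 1 is not reported here; ELN, ATP7A, TNC, POSTN, DCN, ITGA5, VEGFA and CA9 were added after their values were seen. Fits were tested on simulated reads. Exact 95% intervals cover counting error only. Alternatives were the pseudocount, filter, scaling, limma-voom, block and left-out libraries. Of the members, 9 matched a RefSeq promoter table (GRCh38.p14).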

Additional observations from a re-analysis of the deposited data

How the results depend on the processing

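Of 20 settings, the fit without a block called 0 genes under each pseudocount (0.1 and 1), each filter (none and a mean of 5 FPKM), scaling to total reads, limma-voom, and each left-out library. Adding only the replicate block also gave 0 calls (LOX and FN1 at an adjusted p of 0.0506), with 2598 at an unadjusted p under 0.05. Calls appeared in 4 settings. With GC correction and replicate block, 526 genes, 5 members, 1 collagen, 1 elastic fibre, 4 matricellular and 1 hypoxia-driven gene passed. In replicates 1 and 2 alone with the replicate block, these were 629, 6, 1, 1, 4 and 2. Leaving out 1 replicate number from the GC-corrected, blocked fit gave 0 to 746 genes, 0 to 5 members, 0 to 1 collagen, 0 to 1 elastic fibre, 0 to 5 matricellular and 0 to 2 hypoxia-driven genes: 15 genes and 0 members passed without replicate 1, 0 genes without replicate 2, and 746 genes and 5 members without replicate 3. Keeping genes down to a mean of 0.1 FPKM in that fit, chosen after seeing the data, called 0 of 17740 genes, with 3672 at an unadjusted p under 0.05.

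The log2 change stayed above 0 under every setting that gave a value for LOX (0.79 to 0.96), FN1 (0.67 to 0.95), LOXL2 (0.18 to 0.54), LOXL1 (0.11 to 0.58), PLOD2 (0.14 to 0.88), FSTL1 (0.18 to 0.68), LOXL4 (0.22 to 0.69) and SPARC (0.012 to 0.17). Adjusted p-values of LOX ran from 0.0193 to 1.0 and those of FN1 from 0.0276 to 1.0. With 1 library left out and no block, PLOD1 ran from -0.21 (without SCARNA13 ASO replicate 3) to 0.66 (without Control ASO replicate 3), and stood at -0.0038 without Control ASO replicate 1. LOXL3 had a value in 2 settings (-0.38 and -0.33), and LOXL1, LOXL4 and PLOD2 had none at the 5 FPKM filter. The cause of these differences was not tested.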
